A study of Rattus norvegicus with 4 samples.

Results

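The genes described here are the targets and regulators of the sterol regulatory element-binding proteins (SREBPs): the enzymes of cholesterol synthesis, the lipogenic enzymes, and the proteins that hold or release the SREBPs themselves. They were taken as the gene probes of the array whose printed gene name was one of 40 names, and whose signal the scanner software called well above background on 2 or more of the 4 arrays. Of the 40 names, 36 were on the array. The other names, Cyp51a1, Msmo1, Sc5dl and Scd, are other names of the listed genes Cyp51, Sc4mol, Sc5d and Scd1. The 36 genes had 54 probes, of which 52 passed, so that all 36 were measured, among 24312 genes in all. The probes that did not pass were a second Acat2 probe, well above background on 1 array, and another Srebf1 probe, well above background on 0 arrays. Just inside the limit lay Scd1, well above background on 2 arrays, and Elovl5, on 3. Among the 36 genes, 18 are steps of the sterol pathway and 11 belong to fatty acid synthesis, desaturation and elongation. The other members are Insig1, Insig2, Scap, Srebf1 and Srebf2, which control SREBP activity, the sterol carrier Stard4, and Ggps1, which makes geranylgeranyl diphosphate from the same precursors.

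The study asked how a compost extract taken by mouth alters gene expression in the gut of the rat. Male rats of the outbred Wistar stock were given tap water alone (control, 2 rats) or tap water holding 1% by volume of a heated watery compost dilution (compost, 2 rats). Both groups were followed for 12 weeks from 3 weeks of age, and Cy3-labelled RNA of each rat's small intestine, without Peyer's patches, was hybridised to 1 one-colour Agilent array. The segment of small intestine is not stated in the labels, and whole tissue was used, so fewer cells of a type and less RNA per cell cannot be told apart.

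Cholesterol is built from acetyl-CoA through mevalonate, the isoprenoid farnesyl diphosphate, squalene and lanosterol, and the intestine is a major site of its synthesis outside the liver. When membrane sterol is low, SCAP carries an SREBP from the endoplasmic reticulum to the Golgi, where proteases free its transcription factor domain. INSIG proteins hold the complex back when sterol is plentiful. SREBP-2, from Srebf2, acts mainly on sterol genes, and SREBP-1c, from Srebf1, acts mainly on fatty acid genes. SREBPs bind sterol regulatory elements in promoters, usually beside sites of the partner factors NF-Y (CCAAT) and Sp1 (GC boxes).

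RefSeq promoters of the GRCr8 assembly, 250 bases before to 50 bases after the annotated start, were matched to 29 of the 36 members, 2 of them by a synonym, and gave 30 promoters because Srebf1 had a pair. Pmvk, Fdft1, Sqle, Stard4, Fasn, Acaca and Elovl6 were not matched. Neither the sterol regulatory element TCACCCCAC nor its looser form TCACNCCAC occurred on either strand in the 15 sterol step promoters, the 8 fatty acid promoters or the 6 promoters of the SREBP control genes. The strict form occurred in 0.484% and the looser form in 1.12% of the 33469 promoters of the table. The letters CCAAT, on either strand, lay in 12 of the 15 sterol step promoters (80%), in 5 of 8 fatty acid promoters (62.5%) and in 37.5% of all promoters. The GC box GGGCGG lay in 13 of 15 (86.7%), 5 of 8 (62.5%) and 33.1%. The E-box CACGTG, which SREBPs can also bind, lay in 1 of 15, 1 of 8 and 6.42%. A further form, TCACNCGAG, was searched after the other results were seen, so its matches test nothing about the members. It occurred in 0.415% of all promoters and in 3 member promoters, of Fdps, Acss2 and Srebf1. These were 1 of the 15 sterol step promoters, 1 of the 8 fatty acid promoters and 1 of the 6 SREBP control promoters. The strict form is contained in the looser one, and none of the other motifs contains another.

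The 200 bases before the start are shown for 5 members, chosen after their values were seen because their array values carry the results below. Capitals mark the CCAAT letters, the GC box and TCACNCGAG on either strand, so that ATTGG is CCAAT read on the opposite strand and CCGCCC is the GC box read likewise. Hmgcs1 is at chr2:53382104-53382303 on the plus strand, Idi1 at chr17:66547525-66547724 on the minus strand, Fdps at chr2:176804817-176805016 on the minus strand, Sc4mol at chr16:29746913-29747112 on the plus strand and Fads1 at chr1:216252492-216252691 on the plus strand, all in GRCr8.
Hmgcs1: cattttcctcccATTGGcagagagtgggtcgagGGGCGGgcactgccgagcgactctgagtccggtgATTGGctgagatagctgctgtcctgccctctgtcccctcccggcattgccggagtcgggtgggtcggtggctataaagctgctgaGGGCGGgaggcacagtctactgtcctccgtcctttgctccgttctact
Idi1: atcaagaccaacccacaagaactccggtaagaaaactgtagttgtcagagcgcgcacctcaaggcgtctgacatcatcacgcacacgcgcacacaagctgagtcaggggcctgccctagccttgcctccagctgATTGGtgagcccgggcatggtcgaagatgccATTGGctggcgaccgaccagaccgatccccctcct
Fdps: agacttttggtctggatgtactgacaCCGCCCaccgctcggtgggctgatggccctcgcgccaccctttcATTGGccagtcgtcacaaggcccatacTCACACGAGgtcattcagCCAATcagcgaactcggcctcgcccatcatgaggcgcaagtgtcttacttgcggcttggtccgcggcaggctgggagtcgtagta
Sc4mol: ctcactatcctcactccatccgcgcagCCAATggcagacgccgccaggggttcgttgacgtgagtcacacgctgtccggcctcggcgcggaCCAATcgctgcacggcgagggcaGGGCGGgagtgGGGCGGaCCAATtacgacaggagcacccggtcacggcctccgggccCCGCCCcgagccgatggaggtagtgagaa
Fads1: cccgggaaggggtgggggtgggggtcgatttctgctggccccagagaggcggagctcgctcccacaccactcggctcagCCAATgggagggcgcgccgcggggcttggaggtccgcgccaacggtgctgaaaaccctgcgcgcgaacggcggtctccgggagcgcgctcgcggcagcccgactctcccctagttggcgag
In Fdps the TCACNCGAG match runs from position -103 to -95, between CCAAT matches at -130 and -85. Hmgcs1 held 2 CCAAT and 2 GC box matches in the printed window, Idi1 2 and 0, Sc4mol 3 and 3, and Fads1 1 and 0. These matches are letters in a window and not shown binding sites.

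**Figure D1:**
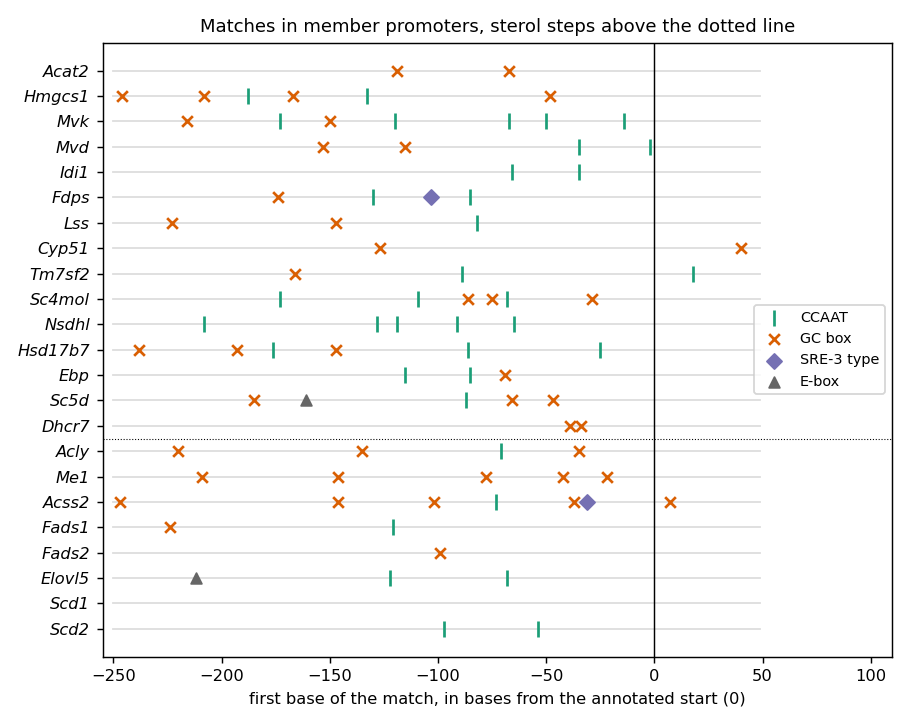
Position of each motif match (x axis, bases from the annotated start at 0) in the RefSeq promoter of 15 sterol steps (above the dotted line) and 8 fatty acid members (below it). Bars are CCAAT, crosses GC boxes, diamonds TCACNCGAG and triangles E-boxes on either strand. CCAAT is present in 12 of the 15 sterol step promoters and 5 of the 8 others, and Scd1 has no match of any kind.

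Levels are given as the log2 of the processed spot intensity minus that array's 75th percentile over all gene probes. A level of 0 is thus the 75th percentile, and levels of different probes are not comparable. Every difference is compost minus control on the log2 scale, with its standard error from limma. The median spot intensity was 80.8 to 113 per array and 66.5% to 71.0% of gene spots were well above background. Both were lowest in compost rat 2 and highest in compost rat 1. Control arrays lay at positions 1 and 2 of the slide and compost arrays at positions 3 and 4, so position and group cannot be told apart.

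The sterol pathway steps were mostly at a higher level in the compost rats, but no single gene passed the test. Of the 18 steps, 16 were higher and 2 lower, with a median difference of 0.26 (1.20-fold), against a median of -0.02 and 46.5% higher over all 24312 genes. Both compost rats exceeded both control rats in 12 of the 18, and the reverse held in 0. Over all genes, these patterns held for 12.7% and 15.2%. A difference of at least 0.5 was measured for 7 of the 18 steps (38.9%), Hmgcs1, Idi1, Fdps, Fdft1, Sqle, Sc4mol and Hsd17b7, against 4.41% of all genes. Fdps reached it by its brightest probe, and averaged over its kept probes it stood at 0.42. With normexp background correction 6 of the 7 reached 0.5, Hsd17b7 standing at 0.46. The share over all genes under that correction is not given. With limma and Benjamini-Hochberg adjustment, 0 of 28417 probes passed the threshold of 0.05, that is 0% in each direction, and the lowest adjusted p of any probe was 0.103. At an unadjusted p under 0.05 there were 913 probes, 401 higher and 512 lower, and 5 of them were member probes, of Fdps, Fdft1, Fads1 and Scd1. The lowest adjusted p among the members was 1.00 with limma. All verbs of comparison below therefore describe measured values in these 4 rats.

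The shift was uneven between the compost rats. Relative to the mean of the control rats, the median over the 18 steps was -0.06 and 0.06 in control rats 1 and 2, 0.14 in compost rat 1 and 0.49 in compost rat 2. Compost rat 2 had the highest level of the 4 in 16 of the 18 steps (88.9%), compared with 31.5% of all genes. It lay above both control rats in 17 (94.4%), against 38% of all genes. Compost rat 1 lay above both control rats in 12 (66.7%), against 32.2% of all genes. The median absolute distance between the compost rats over the steps was 0.42, larger than the list's median group difference, and between the control rats it was 0.15. Over all genes these distances were 0.31 and 0.19, so the compost rats also lay further apart in general. Measured instead against each gene's mean over the 4 arrays, the list median was -0.20 and -0.05 in the control rats and -0.07 and 0.40 in the compost rats, so that the groups overlapped. Without compost rat 2 the median difference was 0.14, without compost rat 1 it was 0.49, without control rat 1 it was 0.17 and without control rat 2 it was 0.38.

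**Figure D2:**
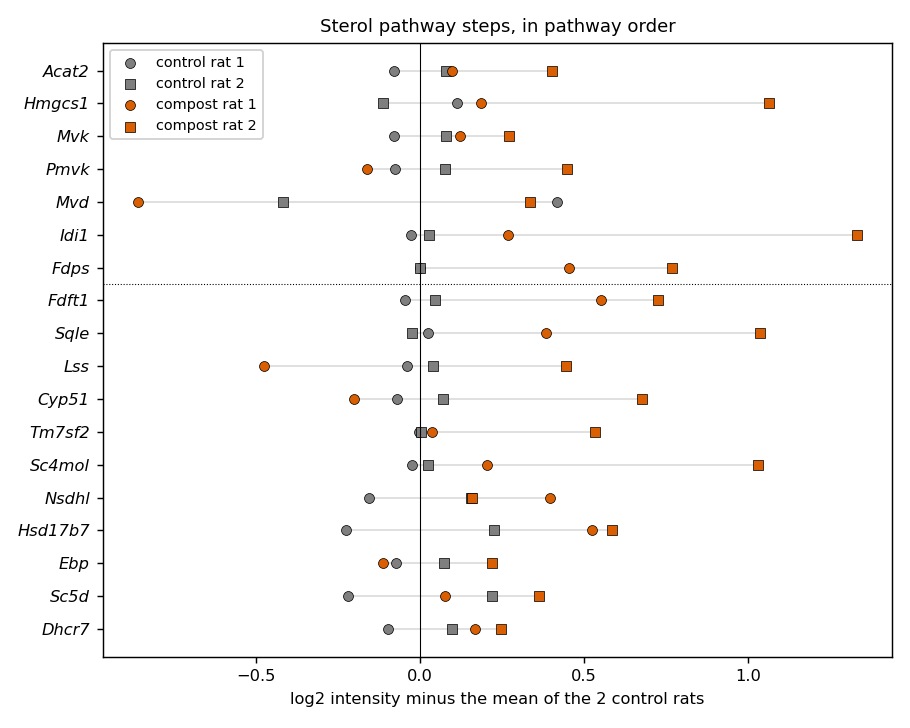
Log2 intensity of the 18 sterol pathway steps in each rat, minus the mean of the 2 control rats (x axis), in pathway order from top to bottom. Grey points are control and orange points compost rats, and the dotted line separates the steps to farnesyl diphosphate from those of squalene and later sterols. Compost rat 2 (orange square) is rightmost in 16 of the 18 genes.

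Among the 7 steps from acetyl-CoA to farnesyl diphosphate, 6 were higher and 1 lower, with a median difference of 0.25. In 5 of these steps both compost rats were above both controls (71.4%, against 12.7% of all genes). Hmgcs1, the cytosolic HMG-CoA synthase, had levels of 4.26 and 4.03 in the control rats and 4.33 and 5.21 in the compost rats. Compost rat 1 was barely above control rat 1, and the distance came from compost rat 2. The difference was 0.63 ± 0.34, or 1.54-fold, and 0.80 ± 0.37 by a second probe. Idi1, the isomerase that makes dimethylallyl diphosphate, had 3.63 and 3.69 against 3.93 and 4.99. Both compost rats were above both controls, compost rat 2 by far the more. Its difference was the largest of the pathway, 0.80 ± 0.39 (1.74-fold), with 0.84 ± 0.32 by a second probe.

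Fdps, farnesyl diphosphate synthase, had nearly identical levels in the control rats, 5.14 and 5.14, and 5.59 and 5.91 in the compost rats. Both compost rats stood clear of the controls, and the difference was 0.61 ± 0.20 (1.53-fold, unadjusted p = 0.0313 and adjusted p = 1.00 with limma). The 3 probes of Fdps did not give one answer, with a second at 0.71 ± 0.19 and the last, designed on another transcript record, at -0.06 ± 0.20. Acat2, the cytosolic thiolase of the first step, had 3.35 and 3.50 against 3.52 and 3.83. Compost rat 1 was all but level with control rat 2, and the difference was 0.25 ± 0.20. Mvk, mevalonate kinase, had -0.30 and -0.14 against -0.10 and 0.05, a difference of 0.20 ± 0.19 with narrowly separate groups.

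The remaining steps to farnesyl diphosphate had overlapping groups. Pmvk, the second kinase, differed by 0.14 ± 0.27. Mvd, which decarboxylates mevalonate diphosphate, differed by -0.26 ± 0.51, and its replicates lay far apart, at 1.65 and 0.81 in the control rats and 0.37 and 1.57 in the compost rats. Ggps1, which leads away from sterols to the lipid anchors of small GTPases, stood at -1.32 and -1.72 against -1.31 and -1.68, a difference of 0.03 ± 0.25.

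From squalene onward, 10 of 11 steps were higher and 1 lower, with a median difference of 0.28. In 7 of these steps both compost rats were above both controls (63.6%, against 12.7% of all genes). Fdft1, which joins farnesyl diphosphate units to squalene and so commits them to sterols, had 0.48 and 0.57 in the control rats and 1.08 and 1.25 in the compost rats. Both compost rats stood clear of the controls, and its standard error was the smallest among the 7 steps at 0.5 or above. The difference was 0.64 ± 0.18 (1.56-fold, unadjusted p = 0.0197 and adjusted p = 1.00 with limma). Sqle, squalene epoxidase, the oxygen-requiring and rate-limiting enzyme of this stretch, had 2.47 and 2.42 against 2.83 and 3.48. Both compost rats were above the controls and the difference was 0.71 ± 0.27 (1.64-fold).

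Sc4mol, the C-4 methyl sterol oxidase that acts after lanosterol, had 5.85 and 5.90 in the control rats and 6.08 and 6.91 in the compost rats. As for Hmgcs1 and Idi1, compost rat 2 was far above the other rats, and the difference was 0.62 ± 0.32 (1.53-fold). Hsd17b7, a ketosteroid reductase of the same C-4 demethylation, had -1.17 and -0.72 against -0.42 and -0.36, a difference of 0.55 ± 0.23 in which the compost rats were close together and the control rats apart. Nsdhl, the dehydrogenase between those enzymes, had -0.18 and 0.13 against 0.37 and 0.13. It was the single sterol step with its highest level in compost rat 1, compost rat 2 was level with control rat 2 to 2 decimals, and the difference was 0.28 ± 0.21.

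Of the other later steps, Tm7sf2, a sterol C-14 reductase, and Dhcr7, which reduces 7-dehydrocholesterol to cholesterol, differed by 0.28 ± 0.24 and 0.21 ± 0.18. Their groups were narrowly separate, with gaps of 0.033 and 0.069 between the nearest rats. Sc5d, the C-5 desaturase, at 0.22 ± 0.24, and Ebp, the sterol isomerase, at 0.05 ± 0.21, had overlapping groups. Cyp51, lanosterol demethylase, and Lss, lanosterol synthase, spread the most. Cyp51 had 3.34 in compost rat 1, below both controls at 3.47 and 3.61, and 4.22 in compost rat 2, for a difference of 0.24 ± 0.34. Lss had -0.87 in compost rat 1 and 0.05 in compost rat 2, on either side of the controls at -0.43 and -0.35, for a difference of -0.02 ± 0.35. The direction of Lss turned to 0.02 under median scaling.

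The 11 fatty acid members had a median difference of 0.35 (1.27-fold), with 9 higher (81.8%, against 46.5% of all genes) and 2 lower. Both compost rats exceeded both control rats in 5 of them (45.5%), compared with 12.7% of all genes, and the reverse held in 0. A difference of at least 0.5 was measured for 3 (27.3%, against 4.41% of all genes), Scd1, Fads1 and Fads2. With normexp background correction it was measured for 0, and the share over all genes under that correction is not given. Scd1 was detected in the compost rats alone and so had to differ. Without it the list had a median of 0.31, with 4 of 10 members separate and 2 at 0.5 or above. The median of all 11 relative to the control mean was -0.06 and 0.06 in the control rats, 0.36 in compost rat 1 and 0.34 in compost rat 2. The highest level fell in compost rat 1 in 5 members (45.5%, against 26% of all genes) and in compost rat 2 in 5 (45.5%, against 31.5%). Among the 18 sterol steps, 16 were highest in compost rat 2. The median difference of the sterol steps minus that of the fatty acid members was -0.08, with a pooled between-rat SD of 0.24, so the lists were not separated by more than the spread between rats. Without compost rat 1 the difference between the lists turned to 0.16.

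**Figure D3:**
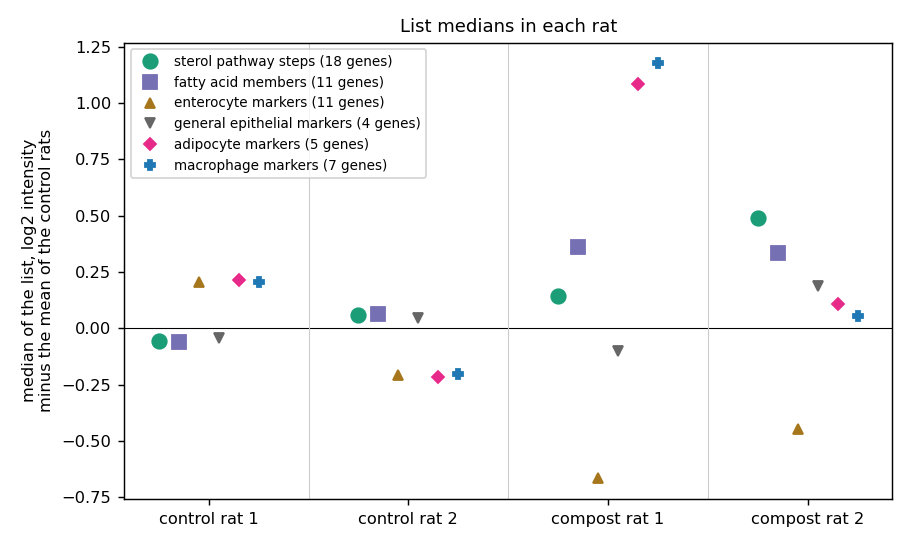
Median over each list of the log2 intensity minus the mean of the 2 control rats (y axis), for each rat (x axis). Sterol steps stand at 0.14 and 0.49 and fatty acid members at 0.36 and 0.34 in compost rats 1 and 2, while enterocyte markers lie below 0 in both and adipocyte and macrophage markers are highest in compost rat 1.

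Of the 5 enzymes of fatty acid synthesis itself, 4 were higher and 1 lower, with a median difference of 0.27, and none reached 0.5. In 2 of them both compost rats were above both controls (40%, against 12.7% of all genes). Fasn, fatty acid synthase, had 2.10 and 2.29 in the control rats and 2.56 and 2.53 in the compost rats. The compost rats were level with each other and above both controls, with a difference of 0.35 ± 0.18 (1.27-fold) and 0.45 ± 0.18 by a second probe. Acaca, acetyl-CoA carboxylase, which makes malonyl-CoA, had 2.60 and 2.72 against 2.79 and 2.96, a difference of 0.22 ± 0.19 with separate groups. A second, dimmer Acaca probe gave 0.19 ± 0.28 with overlapping groups.

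Acly, ATP citrate lyase, the source of cytosolic acetyl-CoA for both pathways, had 3.91 and 3.88 in the control rats and 3.90 and 4.43 in the compost rats. Compost rat 1 lay between the controls, and the difference of 0.27 ± 0.24 came from compost rat 2. Acss2, which makes acetyl-CoA from acetate, had -0.11 and -0.03 against 0.69 and -0.10. Here compost rat 1 alone was high, and the difference was 0.37 ± 0.31. Me1, malic enzyme, a source of NADPH, had 5.90 and 5.56 against 5.30 and 5.61. It was lower by value, with a difference of -0.27 ± 0.23 and overlapping groups, and of -0.37 ± 0.20 with both compost rats below both controls by a second probe.

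Desaturases and elongases numbered 6, with 5 higher, 1 lower, a median difference of 0.48 and separate groups in 3 (50%, against 12.7% of all genes). The median was 0.24 with normexp background correction, and 0.40 without Scd1, with separate groups in 2 of 5. Fads1, the delta-5 desaturase of polyunsaturated fatty acids, had -2.23 and -2.18 in the control rats and -1.43 and -1.72 in the compost rats. Both compost rats were above the controls, and the difference was 0.63 ± 0.20 (1.54-fold, unadjusted p = 0.0276 and adjusted p = 1.00 with limma). Fads2, the delta-6 desaturase, had -4.51 and -4.22 against -3.63 and -3.96, the same order of rats, and a difference of 0.57 ± 0.22 (1.49-fold). With normexp background correction, the Fads2 difference was 0.12 and that of Fads1 was 0.46.

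Scd1, the stearoyl-CoA desaturase, did not reach the scanner's background limit in the control rats. Its measured levels were -6.26 and -5.56 in the control rats and -4.87 and -3.49 in the compost rats. For a bound, each control array was given the lowest signal among its probes well above background, or the level of Scd1 itself where that was higher. Against this floor, Scd1 was at least 2.50-fold higher in the compost rats (adjusted p = 1.00 with limma). The bound holds for the processed intensities alone, since with normexp background correction the measured difference was 1.29-fold. Scd1 passed the filter only through the compost rats, where it was high, so a difference was built into its selection. Without Scd1 and Elovl5, over members well above background on all 4 arrays, the median of the fatty acid list was 0.35 and the groups were separate in 4 members.

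Scd2, the related desaturase, had 1.65 and 2.45 in the control rats and 2.36 and 2.53 in the compost rats, and control rat 1 alone was low. Its difference was 0.40 ± 0.32, while the other probes of Scd2 gave 0.11 ± 0.27 and -0.17 ± 0.38. Elovl6, which extends palmitate, had 3.20 and 3.42 against 3.26 and 3.47, a difference of 0.06 ± 0.20 with interleaved rats and -0.12 ± 0.21 by a second probe. Averaged over its probes, Elovl6 turned to -0.03. Elovl5, an elongase of polyunsaturated fatty acids, was not well above background in compost rat 2 and differed by -0.10 ± 0.39, turning to 0.02 under quantile normalization.

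**Figure D4:**
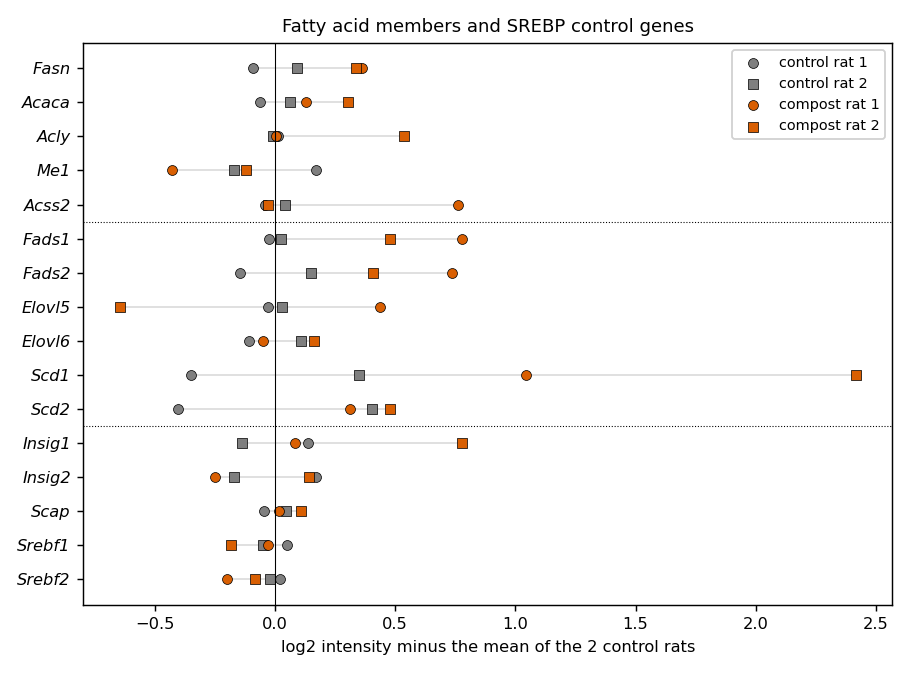
Log2 intensity of the fatty acid members and the SREBP control genes in each rat, minus the mean of the 2 control rats (x axis). Dotted lines separate synthesis (top), desaturation and elongation (middle) and SREBP control (bottom); grey points are control and orange points compost rats. Fads1 and Fads2 are highest in compost rat 1, Scd1 in compost rat 2, and the Srebf2 points of the compost rats lie left of both controls.

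The genes of SREBP control lay close to 0, apart from Insig1. Of 5, 2 were higher and 3 lower, with a median difference of -0.05, and none of them reached 0.5. Insig1, the retention protein whose gene is itself an SREBP target, had 5.30 and 5.02 in the control rats and 5.25 and 5.94 in the compost rats. Compost rat 1 lay between the controls and compost rat 2 above them. Its difference was 0.43 ± 0.30 (1.35-fold), and all 4 of its probes gave values from 0.43 to 0.51. Insig2, the related protein, had 1.49 and 1.15 against 1.07 and 1.46, a difference of -0.05 ± 0.24.

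Scap, the escort protein, had 2.44 and 2.54 in the control rats and 2.51 and 2.60 in the compost rats, a difference of 0.06 ± 0.18. Srebf1 had 2.92 and 2.82 against 2.85 and 2.69, a difference of -0.10 ± 0.18. Srebf2 had -1.68 and -1.72 against -1.90 and -1.78. It was the single member with both compost rats below both controls, by -0.14 ± 0.18, but its second probe gave 0.11 ± 0.18 with both compost rats above. The transcripts of the SREBPs themselves thus differed by less than their standard errors from limma, which lean on the spread of all probes. Array values carry no information on SREBP cleavage. Stard4, a cytosolic sterol carrier and SREBP-2 target, had 1.03 and 1.19 against 1.30 and 1.48, a difference of 0.28 ± 0.19 with separate groups.

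**Figure D5:**
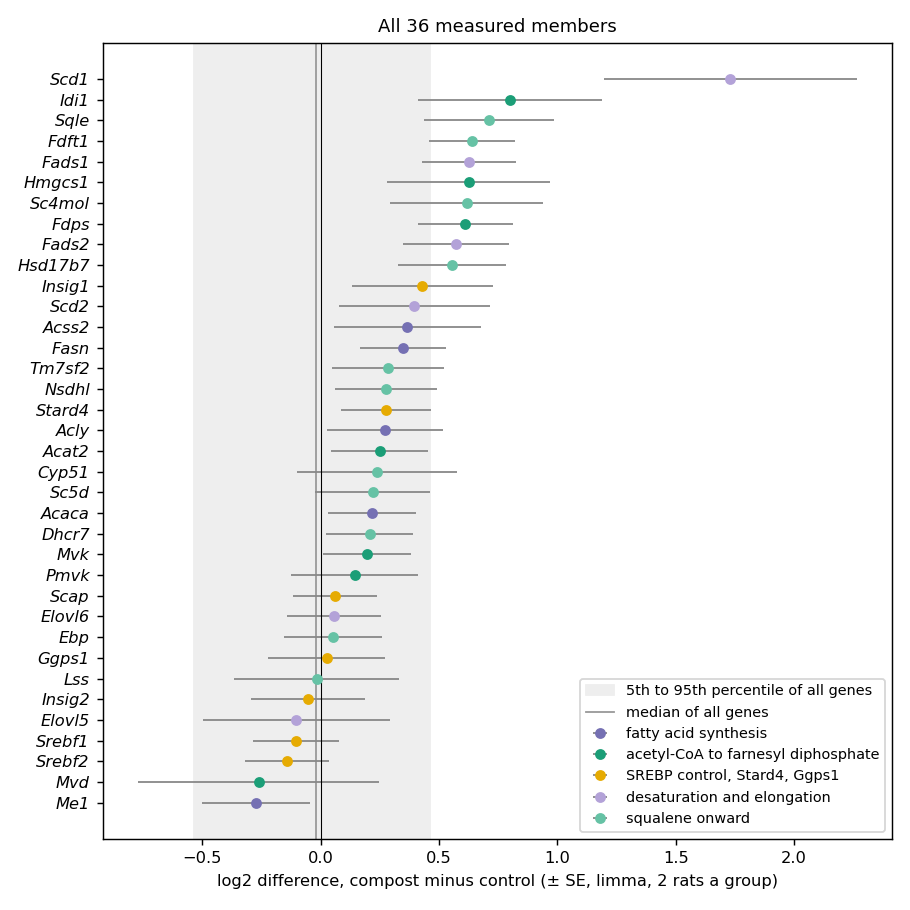
Difference between compost and control in log2 intensity (x axis, points, with standard errors from limma as bars, 2 rats a group) for the 36 measured members, coloured by role. The grey band spans the 5th to 95th percentile of all 24312 genes, -0.53 to 0.46, and the grey line their median, -0.02. At 0.5 or above lie 10 members (27.8%, against 4.41% of all genes), and none of the SREBP control genes is among them. With normexp background correction 6 members lie there, without Hsd17b7, Fads1, Fads2 and Scd1, and the share over all genes is not given. Averaged over its kept probes, Fdps stands at 0.42.

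Other genes of these pathways were taken from lists that are not members. Of 17 names of sterol synthesis, uptake and storage, 14 genes were measured, 9 higher and 5 lower, with a median difference of 0.30. Both compost rats were above both controls in 5 (35.7%, against 12.7% of all genes). They were below in 2 (14.3%, close to the 15.2% of all genes). None passed the limma test in either direction. Npc2, a lysosomal cholesterol carrier, had 1.87 and 2.33 in the control rats and 2.52 and 2.52 in the compost rats (0.42 ± 0.23). Soat2, which esterifies cholesterol in enterocytes, had 2.75 and 2.38 against 2.20 and 2.10, lower by value in both compost rats (-0.41 ± 0.21).

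Of 20 names of lipogenesis outside the members, 13 genes were measured, 5 higher and 8 lower, with a median difference of -0.07. Both compost rats were above both controls in 1 (7.69%, against 12.7% of all genes). It was Gpam, the first acyltransferase of glycerolipid synthesis, at 0.23 ± 0.18. Dgat1, which completes triglycerides in enterocytes, had 6.33 and 5.84 in the control rats and 5.38 and 5.89 in the compost rats, a difference of -0.45 ± 0.29. Dgat2, the other enzyme of that step, differed by -0.20 ± 0.26. None passed the limma test in either direction.

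Of 8 names of further proteins that process or degrade parts of the SREBP system, 7 genes were measured, 3 higher and 4 lower, with a median of -0.02. Tmem97, a sterol-responsive membrane protein, had 2.70 and 2.89 in the control rats and 3.16 and 3.55 in the compost rats, a difference of 0.57 ± 0.22 with separate groups. Rnf139, an endoplasmic reticulum ubiquitin ligase, differed by -0.19 ± 0.19. The list of the oxysterol receptor LXR, which responds to sterol excess, held 7 measured genes, 2 higher and 5 lower, with a median of -0.09. Without the receptor genes Nr1h2 and Nr1h3, it held 5 targets, 1 higher and 4 lower, with a median of -0.44. The compost rats differed here, with medians relative to the control mean of 0.09 in compost rat 1 and -0.72 in compost rat 2. In 0 of the 5 targets were both compost rats below both controls. Mylip, a ubiquitin ligase, was well above background on 1 of the compost arrays and had -3.40 and -3.94 in the control rats and -3.50 and -5.37 in the compost rats, so its measured difference of -0.77 ± 0.66 rests on a value near background in compost rat 2. The cholesterol exporter Abca1 differed by 0.25 ± 0.22 and Abcg8, a sterol exporter of the brush border, by -0.44 ± 0.78. None of either list passed the limma test.

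Marker genes of several cell types differed between the same rats. All 11 enterocyte markers had lower values in the compost rats, with a median difference of -0.69. In 8 both compost rats were below both controls (72.7%, against 15.2% of all genes). Their summed level, in multiples of the array's 75th percentile, was 2454 and 1985 in the control rats and 1379 and 1786 in the compost rats. Lct and Alpi of this list did not reach the background limit in the compost rats and were kept through the control rats alone, so lower values were built into their selection. Over the other 9 markers the median difference was -0.41, with 6 below in both compost rats. The 4 general epithelial markers measured had a median difference of 0.02 and a summed level of 907 and 929 against 840 and 1070.5. The summed level of the 18 sterol steps was 228 and 236 against 257 and 392. Such sums are set mostly by the brightest probes. Relative to the control mean, the median of the sterol steps was 0.14 in compost rat 1 and 0.49 in compost rat 2. That of the enterocyte markers without Lct and Alpi was -0.64 and -0.18. By list median, though not for every gene, they thus differed in opposite directions in both compost rats.

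Acss2, Fads1, Fads2, Elovl5 and, by a narrow margin, Fasn were highest in compost rat 1. It also had the highest level of 4 of the 5 measured adipocyte markers (80%, against 26% of all genes). The summed level of these markers was 2.24 and 1.45 in the control rats and 3.66 and 1.94 in the compost rats. The adipocyte markers Plin and Lep were not kept. Compost rat 1 had the highest level of 6 of 7 macrophage markers (85.7%, against 26% of all genes). Their summed level was 42.9 and 30.2 against 69.2 and 43.4. In compost rat 2, where most sterol steps were highest, macrophage and adipocyte markers had medians of 0.05 and 0.11 relative to the control mean. In all 5 measured B and plasma cell markers both compost rats were above both controls, against 12.7% of all genes. These markers had medians of 1.36 and 2.03 and a summed level of 2.51 and 3.82 against 10.1 and 6.46. One of them, Ms4a1, was kept through the compost rats alone and had to be higher, and the medians over the other 4 were 1.46 and 1.70. The 7 proliferation markers had medians of 0.27 and 0.10 and a summed level of 44.4 and 54.9 against 56.6 and 56.3. The part of these cell types in the sterol and fatty acid values was not tested.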

How the data were processed

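Per the file headers, the deposited linear intensity of each spot had been detrended and background-subtracted by the scanner software, and arrays had not been scaled to each other. The software was Agilent Feature Extraction 9.1.3.1, per the submitters' processing notes. Control and outlier spots were left out, log2 intensities of a probe's spots were averaged, and the 75th percentile of gene probes was taken off within each array. The filter on background kept 28417 of 41012 probes. All 4 arrays, 2 rats a group, were fitted with limma 3.58.1 in R 4.3.3 (lmFit and eBayes, two-sided, Benjamini-Hochberg over all kept probes, threshold 0.05), and the script was tested on simulated data. Standard errors and p-values from limma rest on each probe's spread between these rats, drawn toward the spread typical of all probes. They measure no other spread, and precision is limited by the number of arrays. Where a gene had several kept probes, the one with the highest mean stands for it.

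The members and gene lists were chosen with earlier results of these data known, so lists are described by counts and medians without a test. Levels in each rat are given for up to 5 genes with the smallest unadjusted p in each sterol and fatty acid list, for all SREBP control genes and Stard4. Those of Mvd, Cyp51, Lss, Ggps1 and some genes of the further lists were added after their values were seen. Up to 3 genes are named from each further list, and some that the rule took are not reported here. Other probes are given where their sign differs, and for some genes also where it does not. Alternatives were normexp background correction (offset 50), quantile and median scaling, other filters, the authors' deposited value table (rounded processed intensity), a variance trend, the replicate number as a block, the mean over probes, members by current symbol, and each array left out in turn. Promoters came from RefSeq (GRCr8). No batch other than slide position was given.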

Additional observations from a re-analysis of the deposited data

How the results depend on the processing

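The sterol median lay between 0.26 and 0.30 and the fatty acid median between 0.27 and 0.38 over 9 alternatives that kept all arrays. The groups were separate in 11 to 12 sterol steps and in 4 to 6 fatty acid members. The share over all genes, 12.7%, was taken in the main setting alone. The replicate block, members by current symbol and the other filters left every single-gene difference they kept unchanged by construction, so they could not change a sign. The lower end of the fatty acid range, 0.27, came from averaging the probes of a gene. With normexp background correction 1 probe passed the limma threshold, and it was no member; the cause was not tested. Leaving out 1 array in turn gave a sterol median of 0.14 to 0.49 and a fatty acid median of 0.26 to 0.41. Fewer arrays have to be separate in these settings. Compost rat 2 alone lay above both control rats in 17 sterol steps (94.4%) and 8 fatty acid members (72.7%), against 38% of all genes. Compost rat 1 alone lay above them in 12 sterol steps (66.7%) and 7 fatty acid members (63.6%), against 32.2% of all genes. Counts without a control rat are left out, since the share over all genes is not given. The difference between the list medians ran from -0.22 to 0.16 and turned positive without compost rat 1. Of 322 single-gene values under the other alternatives, including those that could not change, 3 changed sign: Elovl5 (0.024, quantile normalization), Lss (0.021, median scaling) and Elovl6 (-0.032, mean over probes). Of 144 with an array left out 17 changed sign, in 11 genes. Their ranges were -0.11 to 0.22 for Ebp, -0.20 to 0.68 for Cyp51, -0.052 to 0.16 for Elovl6, -0.16 to 0.45 for Pmvk, -0.0065 to 0.80 for Scd2, -0.25 to 0.14 for Insig2, -0.86 to 0.34 for Mvd, -0.028 to 0.76 for Acss2, -0.48 to 0.44 for Lss, -0.17 to 0.23 for Ggps1 and -0.64 to 0.44 for Elovl5. Chosen after the data were seen, leaving out Scd1, detected in 1 group alone, gave a fatty acid median of 0.31, 4 separate members and a difference between the lists of -0.046. With the replicate number as a block, 0 probes passed. Same-numbered rats share only a number: their deviations from the group means correlated at -0.036 across probes, which are not independent replicates. Fads2 and Scd1, of low intensity, stood at 0.12 and 0.37 with normexp.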
